A study of Mus musculus with 36 samples.

Results

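The 10 genes described here (Pecam1, Cdh5, Kdr, Tie1, Tek, Cldn5, Emcn, Esam, Sox17 and Sox18) are established genes of vascular endothelium, the cell layer that lines blood vessels. They were taken by name from the 23847 gene entries of each deposited table and followed through the developing mouse gut, dissected on embryonic day E10.5, on E12.5 or on E14.5. Embryos of the C57BL/6J strain carried the label wild type or Ret null and a sex, which made 12 groups of 3 libraries, 36 in all. Neither the Ret allele behind the null label nor whether each library of a group was a different embryo is stated in the labels, so the p-values speak of the spread among these libraries, which may be technical. After 4 pairs of near-identical libraries had each been averaged, wild-type gut was represented by 4, 5 and 6 samples on the successive days, and gut labelled Ret null by 5, 6 and 6. Levels are given as FPKM, fragments per kilobase of transcript scaled to library size, a scale that allows levels of different genes to be compared.

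Endothelial cells line the vessels that grow into the gut wall during the same days on which neural crest cells colonise it. Ret is the receptor through which GDNF acts on those neural crest cells, and embryos that lack it do not form an enteric nervous system in most of the gut. Vascular growth depends on VEGF signals read by Kdr and on angiopoietin signals read by Tek, while adhesion and tight junction proteins hold the cells together and Sox factors set their gene programme. Because RNA was taken from whole gut, fewer endothelial cells and less RNA per endothelial cell cannot be told apart in any value below.

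Ret RNA stood at 2.11 to 13.3 FPKM in the 18 wild-type libraries. Of the 18 null-labelled libraries 11 lacked it (0.0111 to 0.0587 FPKM), but 7 held it at 4.74 to 6.49 FPKM, against their label: E10.5 females 1, 2 and 3, E12.5 male 2, and E14.5 females 1 and 3 and male 1. In 4 libraries the sex-linked genes did not match the title. In 2 of them, E10.5 female 3 and male 1 labelled Ret null, they were those of the opposite sex, and 2, E12.5 wild-type females 1 and 2, held both Xist (49.1 and 52.2 FPKM) and the Y-linked Ddx3y (4.91 and 4.98 FPKM). The deposited tables hold no counts. Read from how wide the deposited intervals are, 1 FPKM rested on a median of 28.4 to 70.1 fragments at E10.5, 70.4 to 157 at E12.5 and 20.6 to 32.2 at E14.5, so depth went with stage. By the same reading, an estimate that takes each interval as symmetric about its value, 38.9 to 6895 fragments lay behind a value of the 10 genes. The highest is rough: Cdh5 in E12.5 female 3 labelled Ret null, at 32.94 FPKM, lies outside its own interval (31.18 to 32.77 FPKM). All 10 genes were detected in all 36 libraries.

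A single E14.5 library stood apart. Wild-type male 2 had the highest Pecam1 (46.6 FPKM), Cdh5 (49.3 FPKM), Tie1 (32.0 FPKM) and Esam (32.5 FPKM) of all 32 samples, and 5.30 FPKM of Sox17 and 17.9 FPKM of Sox18, also the highest. It also held heart transcripts. The sarcomere gene Tnnt2 stood at 525 FPKM against 5.51 to 35 FPKM in the other 5 wild-type samples at E14.5, the atrial myosin gene Myl7 at 306 FPKM against 3.78 to 8.62 FPKM, and the atrial peptide gene Nppa at 304 FPKM against 0 to 0.464 FPKM. The mean log2(FPKM + 1) of 5 heart and endocardium genes was 6.21 in this library, 2.14 to 2.61 in the other 5 and 1.86 to 2.16 in the 6 samples labelled Ret null. The endocardial genes of the list were nearer to the other libraries, Nfatc1 at 3.65 FPKM against 1.73 to 3.13 FPKM and Npr3 at 8.54 FPKM against 5.58 to 7.53 FPKM. Ret was at 4.70 FPKM in the library and the neuronal tubulin Tubb3 at 20.1 FPKM, the lowest of the wild-type samples at E14.5. What part the heart transcripts have in its endothelial values was not tested. The calls, ranges and list counts that change without the library are given both ways.

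**Figure D1:**
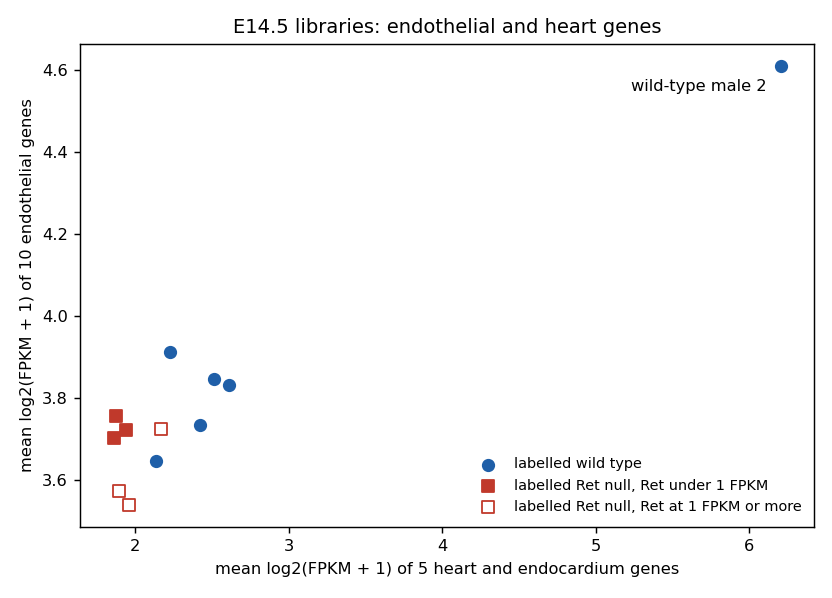
Each point is 1 of the 12 E14.5 libraries; the x axis gives the mean log2(FPKM + 1) of 5 heart and endocardium genes and the y axis that of the 10 endothelial genes. Wild-type male 2 lies at 6.21 and 4.61, and the other 11 libraries lie between 1.86 and 2.61 on the x axis and between 3.54 and 3.91 on the y axis.

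Cdh5 and Pecam1 were the most abundant of the 10 over all samples. Cdh5 (VE-cadherin, the adhesion molecule of endothelial junctions; chromosome 8, 104101625 to 104144502, mm10) averaged 27.6 ± 6.0 FPKM (SD, n = 32), and Pecam1 (CD31, an adhesion molecule at cell borders; chromosome 11, 106654218 to 106715281) averaged 25.9 ± 5.1 FPKM (SD, n = 32). These neighbours in the order were not clearly apart, Cdh5 being the higher of the pair in 20 of 32 samples. A middle group followed with no settled order over the pooled samples. Emcn (endomucin, a surface sialomucin rich on veins and capillaries; chromosome 3, 137341078 to 137431069) averaged 16.9 ± 5.5 FPKM, Kdr (VEGF receptor 2; chromosome 5, 75933270 to 75978428) 15.9 ± 2.7 FPKM, and Cldn5 (claudin 5, a tight junction protein; chromosome 16, 18776847 to 18778262) 15.6 ± 4.4 FPKM (SD, n = 32 each). Tie1 (an orphan receptor that modulates Tek; chromosome 4, 118471191 to 118489849) averaged 15.4 ± 4.4 FPKM and Esam (an adhesion molecule of endothelial tight junctions; chromosome 9, 37528089 to 37538319) 15.2 ± 3.9 FPKM (SD, n = 32 each). Within this middle group the higher of 2 neighbours on average was the higher in only 15 to 21 of the 32 samples. The place of Emcn moved most with the group: at 25.7 ± 4.0 FPKM (SD, n = 4) in E10.5 wild-type gut it was above Pecam1 (23.8 ± 5.4 FPKM), and at 11.85 ± 1.91 FPKM (SD, n = 6) in E14.5 gut labelled Ret null it was under Esam, Kdr, Tie1 and Cldn5.

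Below them, the order was steadier. Sox18, a transcription factor of endothelial and lymphatic development (chromosome 2, 181669837 to 181671640), averaged 11.1 ± 2.6 FPKM and was under Esam in all 32 samples. Tek (Tie2, the angiopoietin receptor; chromosome 4, 94739300 to 94874939) averaged 5.93 ± 2.18 FPKM and was under Sox18 in 31 of 32 samples. Sox17, a transcription factor of arterial endothelium that is also used in endoderm (chromosome 1, 4490928 to 4496413), was the lowest of the 10 at 2.19 ± 0.83 FPKM and was under Tek in all 32 samples. The highest sample exceeded the lowest by 1.98-fold for Kdr, the narrowest range, and by 6.42-fold for Sox17, the widest. That order rests on wild-type male 2 at E14.5: without it Sox17 spanned 3.95-fold, Tek was the widest at 4.41-fold, and Cdh5 the narrowest at 1.855-fold (1.98-fold for Kdr). The plot of all samples shows these levels gene by gene.

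**Figure D2:**
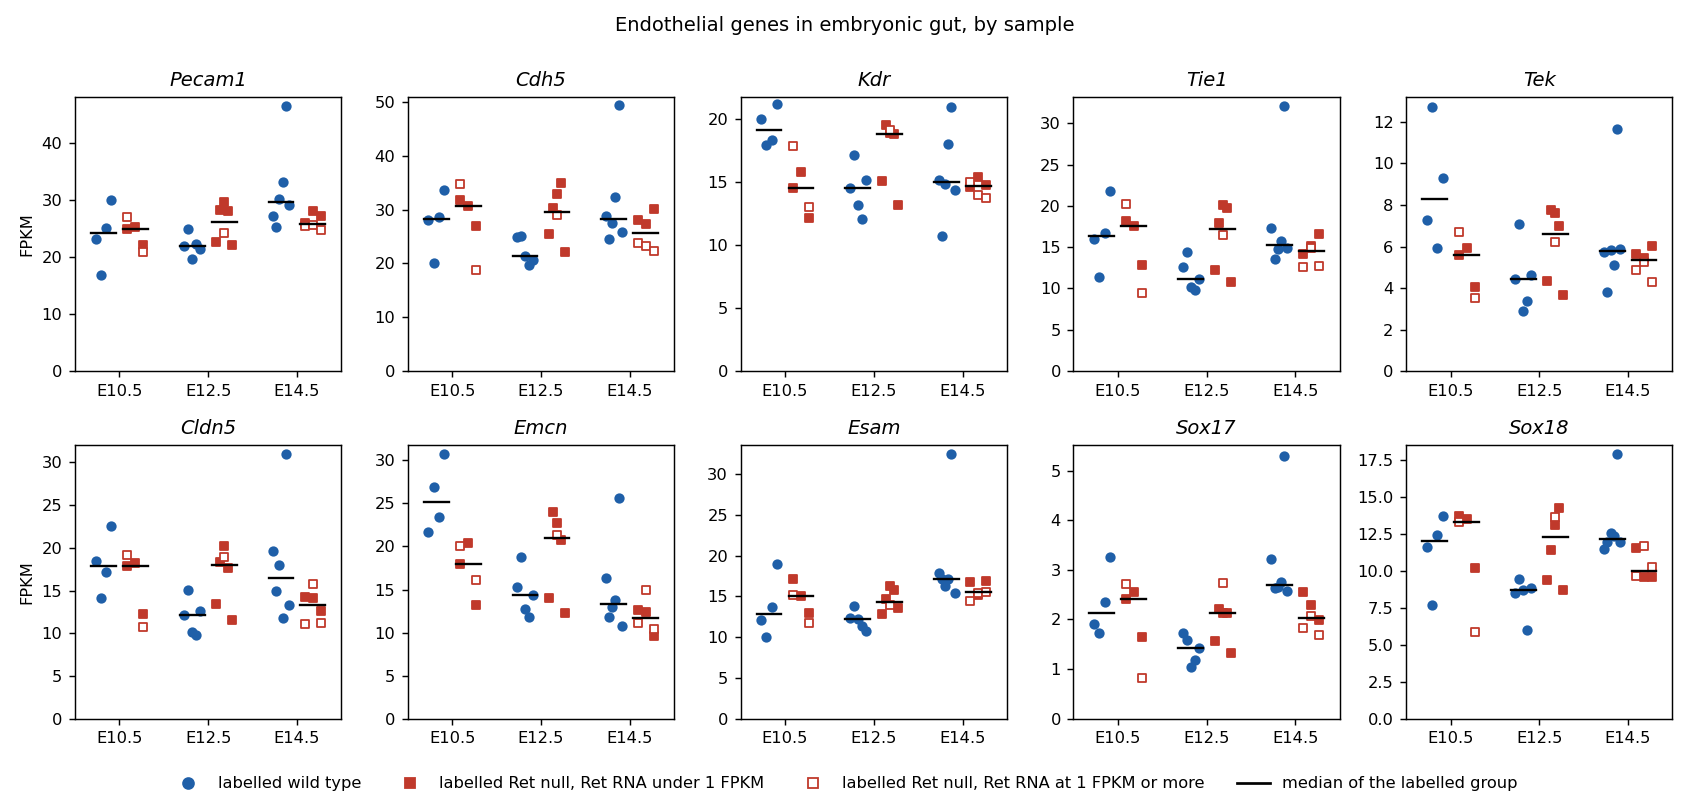
FPKM of each of the 10 genes in each of the 32 samples, by embryonic stage; circles are wild type, squares are labelled Ret null (open where Ret RNA was present), and bars mark the median of a group. The highest E14.5 circle in all 10 panels is wild-type male 2; for Pecam1, Esam, Sox17 and Sox18 every E14.5 circle lies above every E12.5 circle.

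Promoter sequence was at hand for 5 of the 10 genes (Cldn5, Emcn, Kdr, Tek and Tie1). Cldn5 and Emcn are shown because their stretches held the fewest and the most ETS core letters of the 5. Each stretch runs 5′ to 3′ on the gene's strand from 200 to 21 bases before the start, from RefSeq on GRCm38.p6, with the core letters GGAA of ETS family sites, and TTCC, the same letters on the other strand, in capitals. Cldn5 lies at chr16:18776647-18776826 and Emcn at chr3:137340878-137341057, both on the plus strand.
Cldn5: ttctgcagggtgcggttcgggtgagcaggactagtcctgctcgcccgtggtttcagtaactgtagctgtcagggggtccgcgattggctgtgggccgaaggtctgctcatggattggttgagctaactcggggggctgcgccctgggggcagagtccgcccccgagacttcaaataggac
Emcn: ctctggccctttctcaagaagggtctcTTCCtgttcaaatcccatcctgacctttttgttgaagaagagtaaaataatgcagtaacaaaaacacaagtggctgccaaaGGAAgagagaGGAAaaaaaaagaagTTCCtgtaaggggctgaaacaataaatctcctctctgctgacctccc
ETS factors such as Erg and Fli1 are known regulators of endothelial genes. The 4 letters occurred 4 times in the Emcn stretch, 3 times in those of Kdr and Tie1, 2 times in that of Tek and not at all in that of Cldn5. They are common: 86.3% of 32851 promoters held them in the same window, with a median of 2 matches. The longer form CCGGAAGT, or ACTTCCGG on the other strand, was in none of the 5 stretches and in 1.97% of all promoters. The SOX letters AACAAT, or on the other strand ATTGTT, were found in the stretches of Emcn and Tek and in 7.01% of all, and the GATA letters AGATAA, or on the other strand TTATCT, in none of the 5 and in 7.27% of all. These matches describe the letters only.

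Between E12.5 and E14.5, 7 of the 10 genes rose in wild-type gut and none fell. Wild-type Pecam1 stood at 19.6, 21.4, 21.9, 22.4 and 24.9 FPKM at E12.5 and at 25.2, 29.7 and 46.6 FPKM (lowest, median and highest of 6) at E14.5. Every E14.5 sample lay above every E12.5 sample, and the rise was 0.48 ± 0.11 (SE) in log2(FPKM + 1), with an adjusted p of 0.000518 (limma, Benjamini-Hochberg over all genes). Sox17 stood at 1.04, 1.18, 1.43, 1.59 and 1.73 FPKM at E12.5 and at 2.58, 2.70 and 5.30 FPKM (lowest, median and highest of 6) at E14.5. Its groups did not overlap either, and it rose most, by 0.76 ± 0.17 (SE; limma adjusted p 0.000433), a scale that understates the change of a gene at so low a level.

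Esam stood at 10.8, 11.3, 12.2, 12.4 and 13.8 FPKM at E12.5 and at 15.5, 17.1 and 32.5 FPKM (lowest, median and highest of 6) at E14.5. Sox18 stood at 5.99, 8.52, 8.66, 8.83 and 9.46 FPKM at E12.5 and at 11.4, 12.1 and 17.9 FPKM (lowest, median and highest of 6) at E14.5. Neither gene overlapped between the stages, with rises of 0.58 ± 0.13 (SE; limma adjusted p 0.000628) and 0.57 ± 0.16 (SE; limma adjusted p 0.0044). The other 3 called genes overlapped between stages: Cdh5 rose by 0.41 ± 0.15, Tie1 by 0.51 ± 0.20 and Cldn5 by 0.48 ± 0.20 (SE; limma adjusted p 0.0235, 0.0282 and 0.0449). Tek (0.34 ± 0.21, SE), Kdr (0.07 ± 0.12) and Emcn (-0.02 ± 0.19) did not pass, with limma adjusted p of 0.17, 0.602 and 0.939.

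Much of the transcriptome moved over the same interval: 58.9% of 14321 tested genes were called, 31% higher and 27.9% lower. The median difference over the 10 genes was 0.48 against 0.02 over all tested genes. Groups did not overlap, with E14.5 higher, for 4 of the 10 genes (Pecam1, Esam, Sox17 and Sox18) and for 20.6% of all genes. Those same 4 kept their calls in all 20 alternatives tried, while Cldn5 kept its call in 10 of the 20, Tie1 in 16 and Cdh5 in 17. Without wild-type male 2 they were the only ones of the 10 called (58.1% of all genes), at rises of 0.38 ± 0.09 for Pecam1, 0.63 ± 0.15 for Sox17, 0.42 ± 0.09 for Esam and 0.48 ± 0.16 for Sox18 (SE; limma adjusted p 0.00152, 0.00147, 0.000492 and 0.0155). Cdh5, Tie1 and Cldn5 then stood at 0.29, 0.34 and 0.27 (limma adjusted p 0.0847, 0.103 and 0.167). The sample averaged from E12.5 wild-type females 1 and 2, which held both Xist and Ddx3y RNA, also decided 3 calls: without it 4 genes were called.

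**Figure D3:**
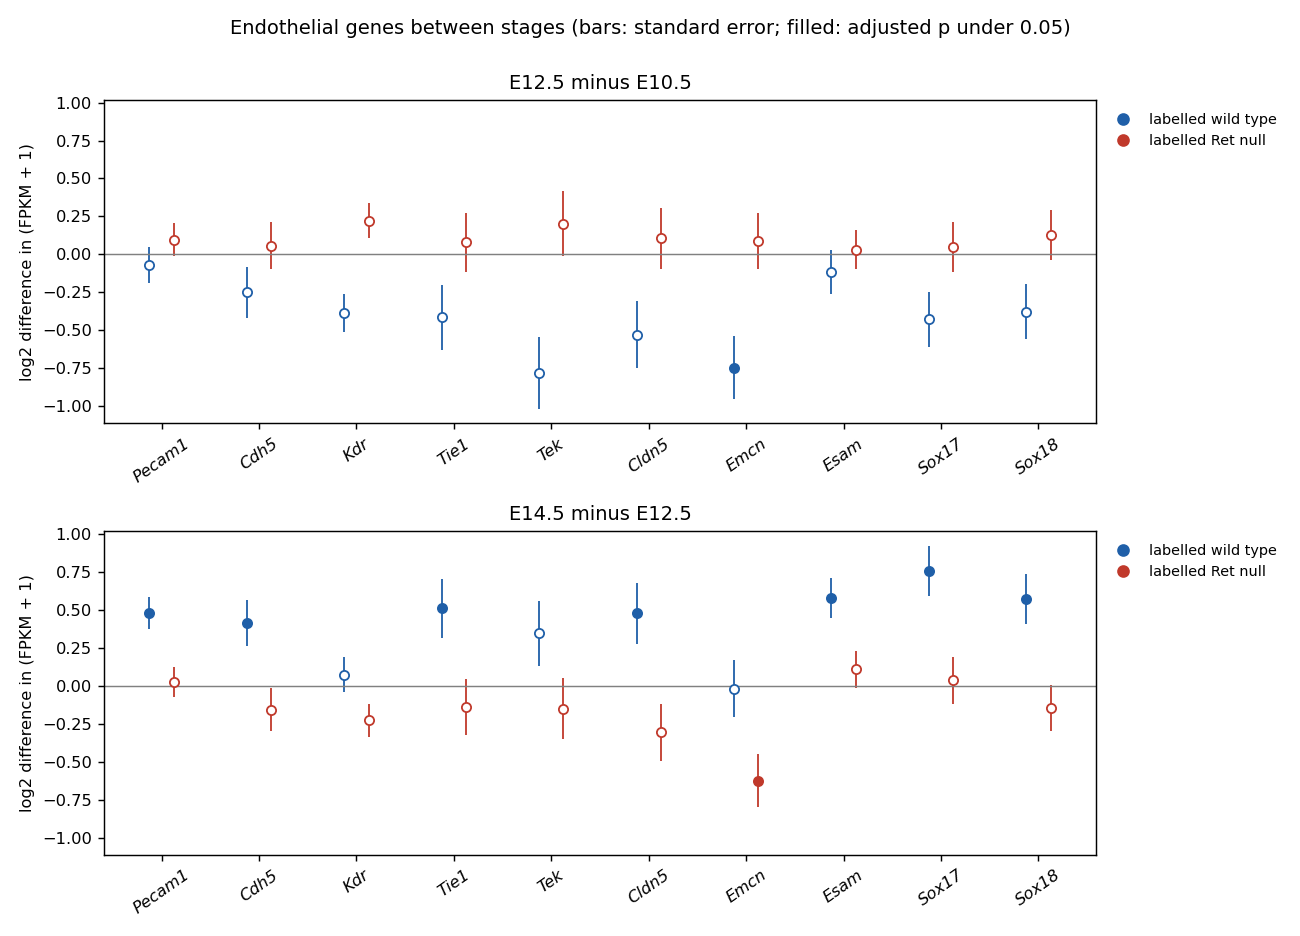
Difference in log2(FPKM + 1) between successive stages for each gene in wild-type gut (blue) and gut labelled Ret null (red), with the standard error; filled points have an adjusted p under 0.05. Between E10.5 and E12.5 only Emcn in wild type is filled; between E12.5 and E14.5 it is 7 wild-type genes, and Emcn in gut labelled Ret null.

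From E10.5 to E12.5 the wild-type direction was the opposite, though few differences passed. The same 5 E12.5 wild-type samples serve in both stage comparisons, so the fall and the rise are not independent. Their mean log2(FPKM + 1) over the 10 genes had a median of 3.49, against 3.88 in wild type at E10.5 and 3.84 at E14.5. Emcn fell. It stood at 21.6, 23.5, 27.0 and 30.8 FPKM at E10.5 and at 11.8, 12.7, 14.4, 15.3 and 18.8 FPKM at E12.5, with no overlap. The difference was -0.75 ± 0.21 (SE), with a limma adjusted p of 0.0381, and it was the 1 call among the 10, where 4.57% of all tested genes were called and 1.82% were lower. The call was lost in 11 of 18 alternatives, including the removal of any of 7 of the 9 samples, with adjusted p from 0.00489 to 0.184 over all 18.

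Kdr showed a like separation at 17.95, 18.3, 19.99 and 21.2 FPKM at E10.5 against 12.1, 13.2, 14.6, 15.1 and 17.2 FPKM at E12.5. The groups did not overlap, but its difference of -0.39 ± 0.13 (SE) had a limma adjusted p of 0.0877. Non-overlap with E12.5 lower held for 2 of the 10 genes, Kdr and Emcn, and for 4% of all genes. Tek stood at -0.78 ± 0.24 (SE; limma adjusted p 0.0581), with 12.7 FPKM in E10.5 wild-type female 3 and 5.93 to 9.29 FPKM in the other 3 E10.5 samples. All 10 differences were below 0, with a median of -0.40 against 0.01 over all tested genes. An unadjusted p under 0.05 was found for 6 of the 10 and for 2672 of all 14321 tested. Over the same interval 5 of 8 gut wall and epithelium genes rose in wild type (Myh11 by 2.48, Actg2 by 2.13, Epcam by 1.13, Shh by 1.09 and Foxf1 by 1.004), where 2.75% of all genes were called higher. Of 8 mural genes 2 rose, Kcnj8 (1.89) and Abcc9 (0.95), and 1 fell, Des (-0.53). The part of these genes in the endothelial values was not tested.

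Gut labelled Ret null showed little of either movement. From E10.5 to E12.5 none of the 10 genes was called by limma, where 3.36% of all genes were. An unadjusted p under 0.05 was found for 0 of the 10 and for 2755 of all 14321 tested. All 10 differences lay above 0, between 0.03 and 0.22. From E12.5 to E14.5 only Emcn was called. It stood at 12.3, 21.02 and 24.1 FPKM (lowest, median and highest of 6) at E12.5 and at 9.66, 11.7 and 15.0 FPKM (lowest, median and highest of 6) at E14.5. The stages overlapped through E12.5 female 1 (14.0 FPKM) and male 3 (12.3 FPKM), and Emcn fell by 0.62 ± 0.18 (SE; limma adjusted p 0.00796), where 35% of all genes were called and 11.8% were lower. Without the libraries that held Ret RNA the difference was -0.56, with a limma adjusted p of 0.117. The other 9 genes lay between -0.31 and 0.11.

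The difference in change between the genotypes was tested directly. The change from E12.5 to E14.5 in gut labelled Ret null minus that in wild-type gut was -0.72 ± 0.23 for Sox17, -0.72 ± 0.22 for Sox18 and -0.45 ± 0.15 for Pecam1 on the log2 scale (SE; limma adjusted p 0.0329, 0.0311 and 0.037). These 3 of 10 calls stand beside 17.4% of all genes called and 6.19% lower, and all 10 differences were below 0, with a median of -0.59. An unadjusted p under 0.05 was found for 8 of the 10 and for 4844 of all 14321 tested. Without wild-type male 2 none of the 3 passed (differences of -0.59, -0.63 and -0.36; limma adjusted p 0.0516, 0.0514 and 0.0548; 6 of 10 genes at an unadjusted p under 0.05; 17.6% of all genes called). Without the libraries labelled Ret null that held Ret RNA none passed either (-0.52, -0.65 and -0.42; limma adjusted p 0.107, 0.0526 and 0.107; 3 of 10 genes at an unadjusted p under 0.05). Leaving out 1 sample at a time gave 0 to 7 calls.

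Between E10.5 and E12.5 the same test called none of the 10 genes, where 1.34% of all genes were called. It shares its E12.5 samples with the test from E12.5 to E14.5, so the opposite signs are not independent. An unadjusted p under 0.05 was found for 5 of the 10 and for 2086 of all 14321 tested. All 10 differences lay above 0, with a median of 0.50, and Kdr came nearest at 0.61 ± 0.17 (SE; limma adjusted p 0.0802).

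Within each stage no gene of the 10 was called between gut labelled Ret null and wild-type gut. At E10.5 the lower values were in Emcn, Kdr and Tek. Emcn stood at 13.2, 16.2, 18.0, 20.1 and 20.4 FPKM in the samples labelled Ret null against 21.6 to 30.8 FPKM in the 4 wild-type samples. Kdr stood at 12.1, 13.04, 15.8 and 17.87 FPKM in 4 of the samples labelled Ret null, with male 1 between the middle pair of these, against 17.95 to 21.2 FPKM in wild type. These 2 genes did not overlap between the groups (3.74% of all genes did so in this direction), and their differences of -0.52 ± 0.15 and -0.38 ± 0.11 (SE) had limma adjusted p of 0.065 and 0.0739.

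Tek stood at -0.66 ± 0.22 (SE; limma adjusted p 0.103), and the other 7 genes lay between -0.22 and 0.08. Over all genes tested 8.29% of genes were called at E10.5. An unadjusted p under 0.05 was found for 3 of the 10 genes and for 3713 of all 13165 tested. The E10.5 libraries that held Ret RNA against their label were the 3 titled female. By their RNA the sexes were crossed: female 3 had Xist at 0.911 and Ddx3y at 13.5 FPKM, and male 1, without Ret, had Xist at 66.1 FPKM and Ddx3y at 0. Without these 2 libraries the 10 differences ran from -0.49 to 0.21, none called by limma and 2 at an unadjusted p under 0.05. By title, in the males alone Emcn stood at -0.64 and Kdr at -0.46 (limma adjusted p 0.179 and 0.196), and in the females alone at -0.40 and -0.29 (0.257 and 0.279). Genes of other cells differed between the same groups. Called lower in gut labelled Ret null, as 2.67% of all genes were, were 2 of 9 red cell genes, Hbb-bh1 (-2.58) and Hba-x (-1.36). The median of the 9 was -0.22, with 2 above 0. Of 9 blood cell genes 1 was lower, the platelet gene Pf4 (-1.30), with a median of -0.07 and 3 above 0. Of 4 heart and endocardium genes 1 was lower, the atrial gene Myl7 (-1.19), with 1 above 0. Of 6 lymphatic and sinusoidal genes 2 were lower, Mmrn1 (-0.60) and Prox1 (-0.53). Prox1 is also in the pancreatobiliary list. Of the gut wall and epithelium genes, against 5.61% of all genes called higher, 7 of 7 tested were higher in gut labelled Ret null, among them the smooth muscle genes Myh11 (2.58 ± 0.23) and Actg2 (2.34 ± 0.19), at limma adjusted p of 0.00229 and 0.00179. The mean log2(FPKM + 1) of that list was 2.22 to 3.08 in wild type and 3.86 to 4.25 in gut labelled Ret null, against 3.452 to 4.997 in wild type at E12.5. The part of these lists in the endothelial values was not tested.

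At E12.5 all 10 genes lay above wild type, by 0.20 to 0.43 with a median of 0.32, and none was called by limma (adjusted p 0.525 to 0.634; 7 of 10 at an unadjusted p under 0.05). Among all genes tested 0.00759%, a single gene, were called at this stage and 1115 of 13182 had an unadjusted p under 0.05. Sox18 differed most, at 8.70, 12.3 and 14.3 FPKM (lowest, median and highest of 6) against 5.99, 8.52, 8.66, 8.83 and 9.46 FPKM in wild type. Female 1 (9.35 FPKM) and male 3 (8.70 FPKM) labelled Ret null lay within the wild-type range, and the other 4 lay above it. For all 10 genes the same 2 samples were the lowest of the 6. The E12.5 wild-type samples are also those of the stage comparisons above. Because the 10 genes vary together, their shared sign does not make 10 separate results. Without the 1 library that held Ret RNA the 10 differences were 0.19 to 0.38.

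At E14.5 all 10 genes lay below wild type, with differences from -0.42 to -0.07, and none was called by limma, where 15.7% of all genes were. An unadjusted p under 0.05 was found for 3 of the 10 and for 4963 of all 13861 genes tested. Sox17 stood at 1.69, 2.03 and 2.55 FPKM (lowest, median and highest of 6) in gut labelled Ret null and at 2.58, 2.70 and 5.30 FPKM (lowest, median and highest of 6) in wild type. It was the 1 gene of the 10 without overlap, which held for 1.5% of all genes in this direction, and its difference was -0.42 ± 0.14 (SE; limma adjusted p 0.0611). Sox18 stood at -0.29 ± 0.09 (SE; limma adjusted p 0.0565). Without wild-type male 2 these were -0.29 and -0.20 (limma adjusted p 0.0675 and 0.0598), and the median over the 10 genes moved from -0.25 to -0.12. Scaling every library to a common median turned the split of all calls from 1504 higher and 671 lower to 655 higher and 961 lower, and then called Sox18 lower (limma adjusted p 0.0419). In the females alone the 10 differences, in which wild-type male 2 has no part, ran from -0.34 to 0.11, and in the males alone from -0.56 to -0.25. Genes of other cells were called lower in the same comparison, where 4.84% of all genes were lower. Among them were 2 of 9 red cell genes, Alas2 (-1.85) and Hba-a1 (-1.66), with 2 of the 9 above 0. So were 1 of 5 liver genes, Apoa1 (-1.77), and 1 of 8 blood cell genes, the macrophage gene Cd68 (-0.46). Of 8 gut wall and epithelium genes 1 was lower, the epithelial gene Cdx1 (-1.18). Another 2 of these 8, the gut wall gene Foxf1 (0.56) and the epithelial signal Shh (0.61), were higher, where 10.9% of all genes were. Their part in the endothelial values was not tested.

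**Figure D4:**
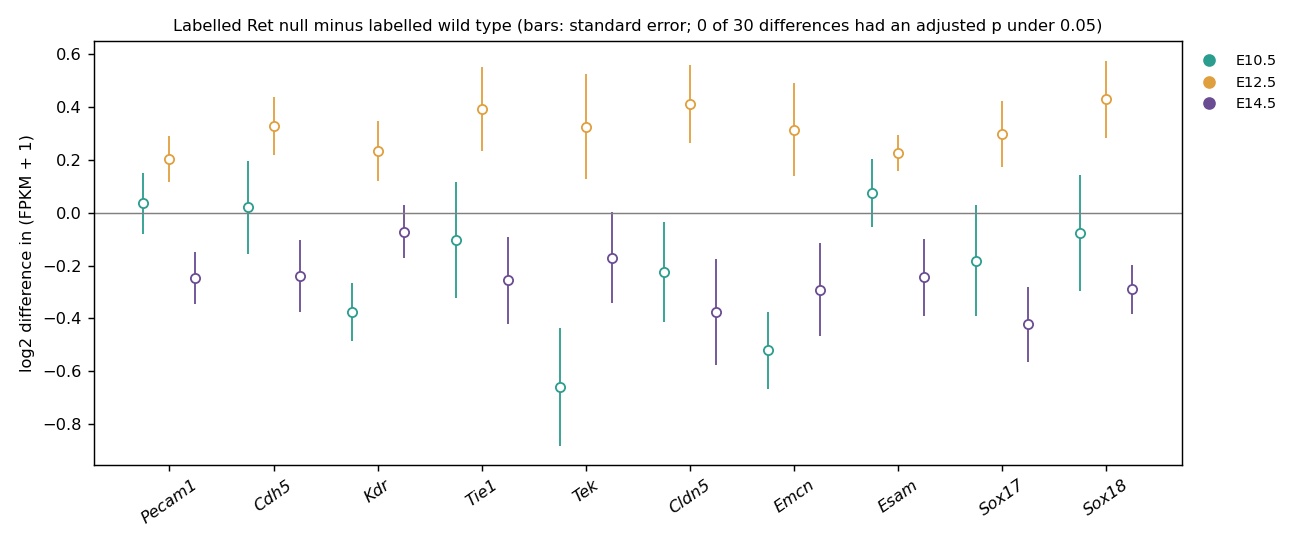
Difference in log2(FPKM + 1) between gut labelled Ret null and wild-type gut for each gene in each of the stages, with the standard error. All 10 points lie above 0 at E12.5 and below 0 at E14.5, and 0 of the 30 differences had an adjusted p under 0.05.

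The libraries labelled Ret null that did lack Ret RNA were also set against wild type. At E14.5 0 of the 10 endothelial genes were then called by limma (0 at an unadjusted p under 0.05; 8.61% of all genes called), with differences from -0.30 to -0.05.

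Ret level divided the E14.5 samples labelled Ret null into 3 with Ret RNA and 3 without, and gives a description with no test. Cdh5 stood at 27.3, 28.1 and 30.1 FPKM in the samples without Ret and at 22.4, 23.2 and 23.9 FPKM in those with it. Pecam1 stood at 26, 27.3 and 28.1 FPKM without Ret and at 24.8, 25.4 and 25.7 FPKM with it. Tek stood at 5.44, 5.64 and 6.03 FPKM without Ret and at 4.30, 4.85 and 5.24 FPKM with it. These 3 genes did not overlap, the samples without Ret being higher, and 6.66% of 13265 genes showed the same; the other 7 overlapped. Tubb3 was at 0.786 to 4.54 FPKM in the samples without Ret and 47.4 to 56.9 FPKM in those with it. At E12.5 the 1 library with Ret RNA lay within the range of the other 5 for all genes but Sox17 (2.73 against 1.33 to 2.20 FPKM).

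The wider endothelial set was followed through lists of related genes. Of 22 other pan-endothelial genes, 11 rose in wild-type gut between E12.5 and E14.5 (31% of all genes did) and 0 fell, and all 22 differences were above 0 with a median of 0.35. The largest was Eng (endoglin, a TGF-beta co-receptor; 1.08 ± 0.17, SE), followed in order of p by Robo4 (a guidance receptor of endothelium; 0.54 ± 0.10), Egfl7 (a secreted endothelial factor; 0.65 ± 0.14) and S1pr1 (the sphingosine 1-phosphate receptor; 0.57 ± 0.14), at limma adjusted p of 9.13e-06, 4.94e-05, 0.000334 and 0.00163. In gut labelled Ret null 3 of the 22 fell over the same interval and 0 rose, a share near the 11.8% of all genes that fell: Ecscr (-0.37), Fli1 (-0.36) and Tal1 (-0.97). The test of the difference called 6 of the 22, all lower in gut labelled Ret null (6.19% of all genes were), among them Ecscr (-0.61), Cd34 (-0.71), Robo4 (-0.41) and Eng (-0.71), at limma adjusted p of 0.0183, 0.023, 0.038 and 0.0386. Between genotypes at E14.5, Cd34 (a sialomucin of endothelium and blood progenitors) and Ecscr (an endothelial adhesion and guidance protein) were lower in gut labelled Ret null (-0.47 ± 0.13 and -0.44 ± 0.13, SE; limma adjusted p 0.0374 and 0.0389), the 2 calls of the list. Among all genes tested at E14.5, 4.84% were called lower. At E12.5 none of the 22 was called between genotypes (0 of 22 by limma), and all 22 differences were above 0. Without wild-type male 2 the rises in wild type numbered 9 of 22, with Sox7 and Ptprb no longer called, where 58.1% of all genes were called in either direction. The test of the difference then called 4 of 22 (Ecscr, Cd34, Egfl7 and Cd93), where 17.6% of all genes were called. Cd34 alone was then lower at E14.5. Without the libraries labelled Ret null that held Ret RNA the test of the difference called 2 of 22, Ecscr and Icam2. The share of all genes in that test is not given here. None of the 22 then fell in gut labelled Ret null, and none was called between genotypes at E14.5, where 8.61% of all genes were.

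Ligands and receptors of the VEGF and angiopoietin pathways were split. Of 13 genes tested, 7 rose and 1, Nrp2 (-0.37 ± 0.13, SE; limma adjusted p 0.0164), fell in wild-type gut between E12.5 and E14.5, where 31% of all genes rose; without wild-type male 2, 6 rose and 2 fell. Vegfa and Vegfb, which encode ligands of the VEGF receptors, rose by 0.48 ± 0.08 and 0.57 ± 0.08, and Apln (apelin) and its receptor gene Aplnr by 0.74 ± 0.10 and 0.63 ± 0.14 (SE; limma adjusted p 2.46e-05, 3.24e-06, 3.04e-06 and 0.000694). In gut labelled Ret null 3 of the 13 rose, a share near the 23.2% of all genes that did, Apln (0.59 ± 0.10), Vegfa (0.30 ± 0.08) and Vegfb (0.20 ± 0.08), and only Vegfb passed the test of the difference (-0.37 ± 0.11; limma adjusted p 0.0271). Kdr itself did not pass in either genotype. Between genotypes at E10.5, 5.61% of all genes were called higher in gut labelled Ret null and 2.67% lower. At E10.5 the list held 3 calls between genotypes: Nrp2 (neuropilin 2, a VEGF co-receptor; 0.66 ± 0.08) and Pgf (placental growth factor; 0.42 ± 0.10) were higher in gut labelled Ret null, and Angpt1 (the ligand of Tek; -0.56 ± 0.08) was lower, at limma adjusted p of 0.00652, 0.0396 and 0.00968.

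Of 9 arterial and venous genes tested, 3 were called in each genotype between E12.5 and E14.5, against 58.9% of all genes in wild type and 35% in gut labelled Ret null. The median of the 9 was 0.12 in wild type and -0.27 in gut labelled Ret null. Of the 3, Efnb2 (ephrin B2) and Nr2f2 (COUP-TFII) fell and Dll4 (a Notch ligand of arteries and tip cells) rose, at -0.81, -0.85 and 0.47 in wild-type gut (limma adjusted p 2.25e-05, 0.000105 and 2.87e-05) and at -0.48, -0.83 and 0.25 in gut labelled Ret null (limma adjusted p 0.00468, 0.000213 and 0.0118). None of the 9 passed the test of the difference (0 of 9 by limma), and without the null-labelled libraries that held Ret RNA only Nr2f2 was called in gut labelled Ret null; Efnb2 and Nr2f2 are also used outside endothelium. Of 6 lymphatic and sinusoidal genes tested, 3 rose in wild type (Lyve1, Stab1 and Pdpn) and 1, Lyve1, in gut labelled Ret null. Among all genes 31% rose in wild type and 23.2% in gut labelled Ret null. Lyve1, a hyaluronan receptor of lymphatic endothelium and of some macrophages, rose by 1.93 ± 0.25 in wild type and by 0.75 ± 0.23 in gut labelled Ret null, a difference of -1.19 ± 0.34 (SE; limma adjusted p 8.27e-07, 0.0163 and 0.0216). At E14.5 Lyve1 was lower in gut labelled Ret null (-0.73 ± 0.14, SE; limma adjusted p 0.0125). Genes of macrophages moved with it: Csf1r, Mrc1 and Cd68 rose in wild type by 0.58, 0.51 and 0.37 (limma adjusted p 0.00166, 0.00567 and 0.01), as 3 of the 5 blood cell genes that rose of 10 tested, the others being Ptprc and Emr1 (now Adgre1). Their part in the Lyve1 values was not tested.

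Lists of other cells in whole gut moved over the same interval. Of 8 mural cell genes 4 rose in each genotype, where 31% of all genes rose in wild type and 23.2% in gut labelled Ret null. In wild type these were Des (1.88), Anpep (2.23), Abcc9 (0.73) and Cspg4 (0.84), at limma adjusted p of 1.65e-10, 4.53e-09, 0.00012 and 0.000138; Des is also a gene of gut muscle and Anpep of gut epithelium. Of 8 gut wall and epithelium genes 6 rose in each genotype, and Foxf1 fell in wild type (-0.92; limma adjusted p 0.000157). Of 9 red cell genes 2 rose (Hba-a1 and Alas2) and 3 fell in wild type (Hbb-y, Hbb-bh1 and Hba-x), while 4 fell in gut labelled Ret null. Among all genes 27.9% fell in wild type and 11.8% in gut labelled Ret null. Rises in wild type were called for 2 of 5 liver genes and 3 of 6 pancreatobiliary genes, against 0 of 5 and 2 of 6 in gut labelled Ret null. Beside these, 3 of 4 tested heart and endocardium genes rose in wild type (Tnnt2 by 3.46, Myl7 by 2.21 and Nfatc1 by 0.93), and 1 of 4, Nfatc1 by 0.42, in gut labelled Ret null. Without male 2 the wild-type counts of these lists, and of the arterial, lymphatic and blood cell lists, were the same. The part of these lists in the endothelial values was not tested.

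**Figure D5:**
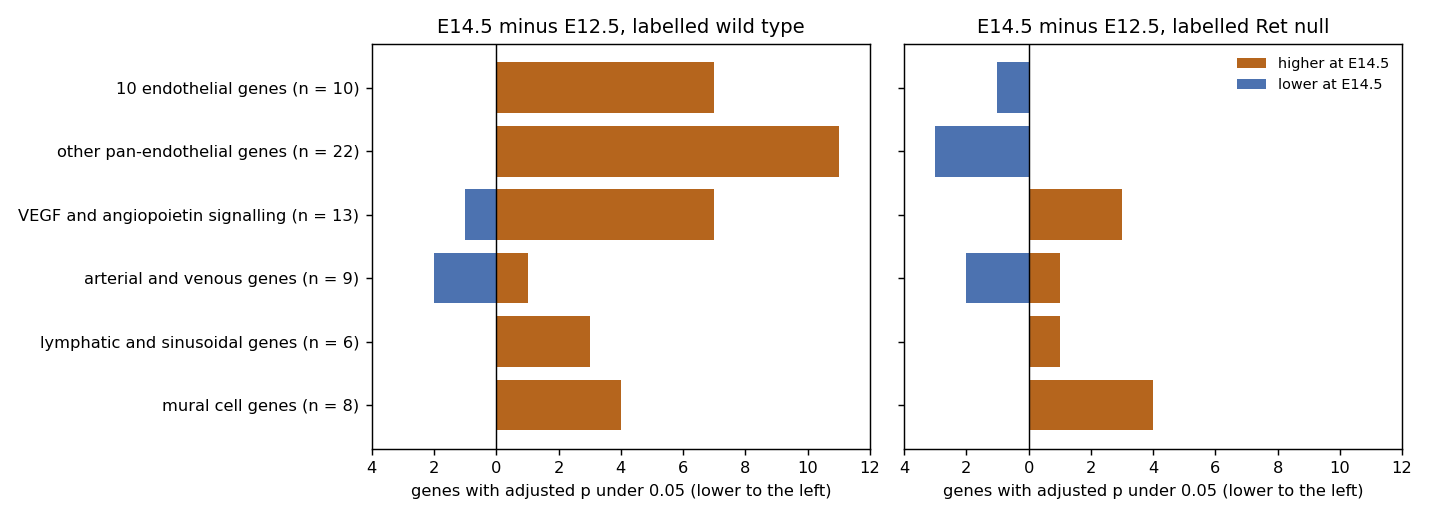
Genes with an adjusted p under 0.05 between E12.5 and E14.5 in the 10 endothelial genes and 5 related lists, for wild-type gut (left) and gut labelled Ret null (right); bars to the right count higher genes and bars to the left lower ones, and n is the number tested. In wild type 7 of 10 and 11 of 22 endothelial genes were higher and 0 lower; in gut labelled Ret null 0 were higher and 1 of 10 and 3 of 22 lower.

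The 10 genes varied together from library to library within a group. After each group's mean was subtracted, the Pearson correlation over 32 samples was 0.582 to 0.942 for the 45 pairs of the 10 genes, with a median of 0.806, and the median was 0.754 without wild-type male 2. Between the 10 genes and all other tested genes the median was 0.019, with a range of -0.877 to 0.945. The highest of these was above the highest pair of the 10, so close co-variation was not confined to them. The pairs share their libraries and depth, and these values are a description. Tie1 varied most like the rest (median 0.872 with the other 9) and Esam least (0.732).

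Over the 12 group means, Tie1 was also the gene closest to the mean profile of the 10, with a correlation of 0.974, and Emcn was the farthest at 0.494 (0.972 and 0.498 without E14.5 wild-type male 2). Each of the 10 is part of that profile, which raises its own value. Among 14321 tested genes Tie1, Cdh5, Sox18, Cldn5 and Sox17 ranked 1, 4, 9, 10 and 13. Pecam1, Esam, Tek, Kdr and Emcn ranked 156, 175, 265, 289 and 1048. The 5 genes outside the set most like that profile were Fgd5 (0.947), Nos3 (0.942), Man1c1 (0.916), Figf (0.902), now called Vegfd, and Prss12 (0.901). Without that library only Nos3 (0.922) of these stayed among the leading 5. Nos3 encodes the nitric oxide synthase of endothelium and Figf a ligand of VEGF receptors.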

How the data were processed

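Whole-gut poly(A) RNA was sequenced by the authors on a HiSeq 2000, and the tools named in the submitters' processing notes are TopHat2, Cufflinks, Cuffdiff and Picard, with genome build mm10; those notes give no versions, annotation or scaling between libraries. The values are gene-level FPKM with an interval, per the file headers, so no count model was used. The members and lists (108 genes in 12 lists) were chosen with earlier results of these data known.

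Libraries of a group were compared with the noise that the interval widths imply. For 4 of 36 pairs it came to 0.936 to 1.11 times the noise, with 0.397 to 1.06% of all genes further than 3 SD apart, against 1.08 to 3.44 times and 1.89 to 39.8% in the other 32. They differed by about the sampling noise, so each pair (at E10.5 null-labelled females 1 with 2, wild-type females 1 with 2 and wild-type males 3 with 4; at E12.5 wild-type females 1 with 2) was averaged and counted as 1 sample. This rule (at most 1.2 times and 1.5%) was set after the data were seen. In the E10.5 null-labelled females no value (0%) fell beyond the interval printed with it; in the remaining libraries 2.73 to 13.6% did, and nothing states why the form differs.

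Tests used limma 3.58.1 (R 4.3.3) on log2(FPKM + 1) with a mean-variance trend, on genes that reached 1 FPKM in 3 or more samples and had an OK status throughout the fit. Genotype was fitted per stage, and stage and genotype-by-stage contrasts in 1 fit of all 12 groups, averaged over the sexes. Calls had a two-sided Benjamini-Hochberg adjusted p under 0.05 over all tested genes. The fit was tested on simulated data. Ranges and group-mean likeness without E14.5 wild-type male 2 were added after the data were seen. Named genes were the 10 and Ret, and per list and comparison up to 4 called genes with the smallest p, or the 1 with the smallest p where none was called; the 5 most alike genes were ranked by Pearson correlation over the 12 group means. The heart genes Tnnt2, Myl7 and Nppa, Npr3, Tubb3, the sex-linked genes and list genes beyond the leading 4 were named after their values were seen. Of the lists, 4 genes were matched by an older symbol. Some list results are not reported here. Alternatives were the pseudocount (0.1), no filter, a common median, every library counted, the replicate number as a block, 1 sex alone, and leaving out samples. For 1 sex alone the difference came from that sex and the spread behind its p-value from both sexes of the stage. Python 3.11.15, pandas 2.3.3, numpy 2.4.6 and matplotlib 3.10.9 made tables and plots.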

Additional observations from a re-analysis of the deposited data

Results flagged for a closer look

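Among 60 groups of 4 to 6 samples (10 genes in 6 groups), 8 had a highest or lowest sample far from the others by Dixon's rule, which chance does in about 1 of 20 groups. Of these, 7 were 1 library, E14.5 wild-type male 2, the highest of 6 in Pecam1 (46.6 FPKM), Cdh5 (49.3 FPKM), Tie1 (32.0 FPKM), Tek (11.7 FPKM), Esam (32.5 FPKM), Sox17 (5.30 FPKM) and Sox18 (17.9 FPKM). The same library held Tnnt2 at 525 FPKM and Nppa at 304 FPKM. The other was Sox18 in E12.5 wild-type male 2, the lowest of 5 at 5.99 FPKM. The 10 genes share their samples and vary together, so the 60 groups are not independent. The count of 8 therefore cannot be set against the rate of 1 in 20.

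The change from E12.5 to E14.5 differed between gut labelled Ret null and wild-type gut for Sox17 (-0.72), Pecam1 (-0.45) and Sox18 (-0.72, all in log2(FPKM + 1)), by limma's test of the difference. Without E14.5 wild-type male 2 the differences were -0.59, -0.36 and -0.63 and none of the 3 passed (limma adjusted p 0.0514 to 0.0548). None passed without the null-labelled libraries that held Ret RNA either, and over 32 alternatives the calls were lost in 12, 14 and 9.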

How the results depend on the processing

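Counts of called genes, of 10, were recomputed under each alternative. The 7 wild-type rises from E12.5 to E14.5 numbered 4 to 7 when 1 sample was left out. The single wild-type call from E10.5 to E12.5 (Emcn) became 0 with no filter, without the libraries with sex-linked RNA that did not match their title, without those labelled Ret null that held Ret RNA, and with the replicate number as a block, 4 with every library counted, and 0 to 2 with 1 sample left out. The single call in gut labelled Ret null from E12.5 to E14.5 became 0 without the libraries that held Ret RNA and 1 to 2 with 1 sample left out.

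Of the tests of a difference between genotypes in change, the 3 calls from E12.5 to E14.5 became 6 under a common median, 6 with every library counted and 0 without the libraries that held Ret RNA, and 0 to 7 with 1 sample left out. The 0 calls from E10.5 to E12.5 became 2 with every library counted and 0 to 1 with 1 sample left out. Between genotypes within a stage, the 0 calls became 2 with every library counted at E10.5 (0 to 1 with 1 sample left out) and 1 under a common median at E14.5 (0 to 1). At E12.5 and for gut labelled Ret null from E10.5 to E12.5 no alternative gave a call.

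Of 14 same-numbered pairs of samples, 5 had deviations correlated above 0.1 (-0.328 to 0.415). Deviations within so small a group are tied to each other, and E10.5 female pairs 1 and 3 carry the same value, 0.0371. Whether the replicate numbers pair the samples therefore cannot be decided from these values. The block left 6 of the 7 wild-type rises, Cldn5 being lost, and 3 of 3 tests of the difference.

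No called gene changed sign. Of 1775 values of uncalled genes over all alternatives, 71 changed sign and 36 became called. Averaging E14.5 males labelled Ret null 2 and 3, the next closest pair, was added after the data were seen and left all 9 counts of the 10 genes as they were, though calls among all genes between genotypes at E14.5 went from 2175 to 776. The cause of these shifts was not tested. Sox17, at 2.19 FPKM, has the fewest fragments behind its values.

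Counts over all genes also moved. Between genotypes at E10.5, 1091 calls became 3774 with every library counted, 625 with no filter, 104 with the block, 184 without the libraries with sex-linked RNA that did not match their title and 68 without the null-labelled libraries that held Ret RNA (179 to 1268 with 1 sample left out). At E14.5, 2175 became 1122 with the block and 1182 without the libraries that held Ret RNA (669 to 3554), and at E12.5 the 1 call became 34 without the latter (0 to 34). The sexes taken alone gave 0 to 87 calls except females at E10.5. In gut labelled Ret null, 481 calls from E10.5 to E12.5 became 1405 with every library counted and 13 without those that held Ret RNA, and 5007 from E12.5 to E14.5 became 3331. In wild type, 654 from E10.5 to E12.5 became 1829 with every library counted, 292 with the block and 264 without the sex-mismatched libraries. For the difference in change, 192 calls from E10.5 to E12.5 became 769, 47 with the block and 1 without the libraries that held Ret RNA, and 2489 from E12.5 to E14.5 became 1473 without the sex-mismatched libraries (1342 to 3563 with 1 sample left out).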
